A study of Mus musculus with 15 samples.

Results

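The annexins described here are 8 mouse genes, Anxa1, Anxa2, Anxa3, Anxa4, Anxa5, Anxa6, Anxa7 and Anxa11, taken with every probe set annotated to them on an Affymetrix mouse array. The table gives 7 of the 8 a value, among the 12394 that have a probe set of their own in the table. Those 7 hold 14 of its 22690 probe sets, and 13 of the 14 were bright enough to be tested. Anxa1, Anxa3 and Anxa5 had 1 probe set each, Anxa4 had 2, and Anxa2, Anxa6 and Anxa7 had 3 each, of which 1 Anxa2 probe set, with signals between 0.3 and 15.4, did not pass the filter on dim probe sets. Anxa11 had 1 probe set, which is also annotated to Gm2274 and Gm2260, so no value is given for it. The study profiled livers of mice aged 16 months that lack Mdr2 (also called Abcb4), the canalicular transporter that moves phosphatidylcholine into bile. The groups were 3 livers of heterozygous mice, which carry the same Mdr2 mutation on 1 allele and served as controls, 6 non-tumorous livers of 6 homozygous Mdr2-KO mice, and 6 liver tumours from 4 of those 6 mice. Mice 3 and 4 gave 1 tumour each and mice 5 and 6 gave 2 tumours each, named 5-1, 5-2, 6-1 and 6-2. Strain and sex are not given in the sources used here, and no wild-type liver was used.

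Annexins are soluble proteins that bind negatively charged membrane phospholipids when calcium is present. They act in membrane repair, vesicle traffic, the linkage of membranes to actin and the control of inflammation and fibrinolysis. In healthy liver, Anxa6 is a known hepatocyte protein, while Anxa1, Anxa2 and Anxa3 are better known from non-parenchymal and biliary cells and from injured or transformed tissue.

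The measurement was a MAS5 signal, a linear brightness per probe set that the submitters had scaled so that the trimmed mean of each array was close to 150. Array medians ran from 35.8 to 51.2 and the 40th percentile of signals, the threshold of the filter, from 22.5 to 32.9, so a signal under about the array median is close to background. Abcb4 had a mean signal of 890 ± 114 in heterozygous livers, 236 ± 46.2 in knockout livers and 302 ± 208 in tumours (SD, n = 3, 6 and 6). Tumour 4, at 681.1, and tumour 3, at 397.1, were above every knockout liver (177.4 to 305.7) and below every heterozygous liver (778.9 to 1006.4), so tumour 4 lay nearer to the range of the heterozygous livers than to that of the knockout livers. Whether this probe set reads the mutated stretch of Abcb4 is not given in the sources used here. Results with tumours are therefore also given without tumour 4. The ratio of the 3' to the 5' actin control probe set, a measure of RNA integrity, was 2.99 ± 0.414 in heterozygous livers, 2.09 ± 0.393 in knockout livers and 1.78 ± 0.208 in tumours, so it moved with the groups. Changes are given as log2 differences of the signal plus 9.1, and a probe set was called when its limma p-value, adjusted over all 16128 probe sets tested, was under 0.05. The levels of different probe sets are not comparable with each other on this kind of array. The samples are pieces of tissue, in which fewer cells of a type and less RNA per cell cannot be told apart.

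Anxa5 and Anxa2 had the largest differences from heterozygous liver among the annexins, so the RefSeq sequence of the 250 bases before each of their start sites is shown. The entries are from build GRCm38.p6, chr3:36475888-36476137 on the minus strand for Anxa5 and chr9:69453433-69453682 on the plus strand for Anxa2, each read 5' to 3' toward the gene. Capitals mark matches to 4 motifs searched on both strands, the AP-1 motif TGANTCA, the TATA box TATAAA, the GC box GGGCGG and the CCAAT box CCAAT.
Anxa5: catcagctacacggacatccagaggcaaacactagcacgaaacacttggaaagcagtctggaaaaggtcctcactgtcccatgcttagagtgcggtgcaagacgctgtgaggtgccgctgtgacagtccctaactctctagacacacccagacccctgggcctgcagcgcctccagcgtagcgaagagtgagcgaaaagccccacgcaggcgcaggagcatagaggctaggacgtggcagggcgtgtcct
Anxa2: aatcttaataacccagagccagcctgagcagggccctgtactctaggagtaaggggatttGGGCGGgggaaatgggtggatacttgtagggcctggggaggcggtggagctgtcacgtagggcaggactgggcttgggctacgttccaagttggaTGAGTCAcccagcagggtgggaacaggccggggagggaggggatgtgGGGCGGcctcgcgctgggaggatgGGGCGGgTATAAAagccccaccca
The Anxa5 stretch held none of the 4 motifs, at 58.8% G and C. The Anxa2 stretch held 1 AP-1 motif, TGAGTCA, that begins 95 bases before the start site, 1 TATA box at 17 bases and 3 GC boxes at 190, 48 and 24 bases. Among 32851 promoters of the same length, 6.749% held the AP-1 motif, 12.37% the TATA box, 32.74% the GC box and 33.85% the CCAAT box. Of the 8 annexins, 6 matched an entry, and Anxa3 and Anxa6 did not. A match is a description of letters and not a measured site.

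The first comparison set non-tumorous knockout liver against heterozygous liver of the same age. The family was chosen by the measured Anxa5 signals of knockout against heterozygous liver, so the annexin values against heterozygous liver are a description with no test, and the counts below support nothing. All 7 annexins with a value were higher on average in knockout liver, from Anxa5 at 21.8-fold to Anxa6 at 1.08-fold by their brightest probe sets. By the call rule, 2 of the 13 annexin probe sets were called, those of Anxa5 and the brightest of Anxa2, where 1.82% of all probe sets were called and 1.46% were called higher. The median log2 change of the 7 genes was 0.78, and that of all 9532 genes measured was -0.02.

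Anxa5, which binds phosphatidylserine on exposed membranes and is used as a stain for dying cells, had signals of 62.4, 26.3 and 31.9 in the 3 heterozygous livers. In the 6 knockout livers it ran from 727.0 to 1255.2, with a median of 1066 and its lowest value in liver 5. The groups lay far apart, since the lowest knockout liver was above every heterozygous liver by more than the whole range of the latter. The mean was 1029 ± 184 in knockout liver against 40.2 ± 19.4 in heterozygous liver (SD, n = 6 and 3), a log2 change of 4.44 ± 0.26 SE. Since 2 of the 3 heterozygous signals lay below every array median, the size of this ratio depends on the constant added: the log2 change was 4.76 with none and 3.74 with a constant of 40. Fitted with the actin 3' to 5' ratio as a covariate it was 4.39.

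Anxa2, which pairs with S100a10 and binds plasminogen and its activator at the cell surface, had brightest-probe-set signals of 99.0, 107.0 and 86.7 in heterozygous liver. The knockout livers ran from 323.5 in liver 5 to 1023.0 in liver 3, with a median of 546, and the other 4 lay between 541.2 and 553.6. Every knockout liver was above every heterozygous liver, and the log2 change was 2.41 ± 0.54 SE, or 5.32-fold. The call of this probe set was lost in fits without heterozygous liver 1, 2 or 3 or without knockout liver 1, 2, 3, 4 or 6, one at a time, with log2 changes between 2.24 and 2.47 there, so that 1 annexin probe set, that of Anxa5, stayed called. It was also lost with the actin 3' to 5' ratio as a covariate, at a log2 change of 2.44, and without the trend in the fit. These fits called 35 and 196 of all 16128 probe sets. A second Anxa2 probe set was dim, with 26.8, 13.9 and 5.3 in heterozygous liver and 22.1 to 47.2 in knockout liver, and these groups overlapped.

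Anxa3, a calcium- and phospholipid-binding annexin, gave 30.4, 44.2 and 43.7 in heterozygous liver and 64.8 to 134.3 in knockout liver, with a median of 92.6. The groups did not overlap, with liver 5 again lowest and liver 3 highest, and the log2 change was 1.07 ± 0.30 SE. Anxa1, a ligand of formyl peptide receptors that is induced by glucocorticoids and limits inflammation, gave 101.8, 60.4 and 64.4 in heterozygous liver and 74.3 to 348.3 in knockout liver, with a median of 115. Here the groups overlapped, because knockout liver 5 lay below heterozygous liver 1, and liver 3 stood above the rest, at 348.3 against 148.4 for the next highest. The log2 change of Anxa1 was 0.78 ± 0.42 SE, and 0.51 without liver 3.

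Anxa4, which is found at the apical membrane of secretory epithelia, gave 254.0, 224.8 and 270.9 in heterozygous liver by its brightest probe set. The knockout livers ran from 251.7 to 375.4 with a median of 360, and liver 5 alone lay inside the heterozygous range while the other 5 were at or above 353.8. The log2 change was 0.44 ± 0.32 SE by this probe set and 0.70 ± 0.33 SE by the second one, in which the groups did not overlap (108.0 to 174.2 against 175.0 to 260.0). Anxa7, which binds sorcin and takes part in calcium-dependent membrane fusion, gave 539.4, 498.7 and 575.7 in heterozygous liver and 625.0 to 894.8 in knockout liver by its brightest probe set, with a median of 748, with no overlap and a log2 change of 0.48 ± 0.21 SE. Its other 2 probe sets overlapped between groups, with log2 changes of 0.05 ± 0.20 and -0.14 ± 0.26 SE, so the Anxa7 probe sets did not show the same difference.

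Anxa6, a larger annexin with a duplicated core that acts in cholesterol transport and endocytosis, was the closest to its heterozygous level. Its brightest probe set gave 289.4, 293.7 and 312.9 in heterozygous liver and 233.7 to 395.8 in knockout liver, with a median of 337. The knockout range enclosed the heterozygous one, and the log2 change was 0.11 ± 0.20 SE, turning to -0.29 with the actin ratio as a covariate. The other 2 probe sets gave 0.02 ± 0.23 and 0.62 ± 0.42 SE, the last from signals that did not exceed 36.7 in any array. In all, 5 of the 13 annexin probe sets had every knockout liver above every heterozygous liver, where 7.73% of all probe sets did. These 5 belonged to Anxa2, Anxa3, Anxa4, Anxa5 and Anxa7.

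**Figure D1:**
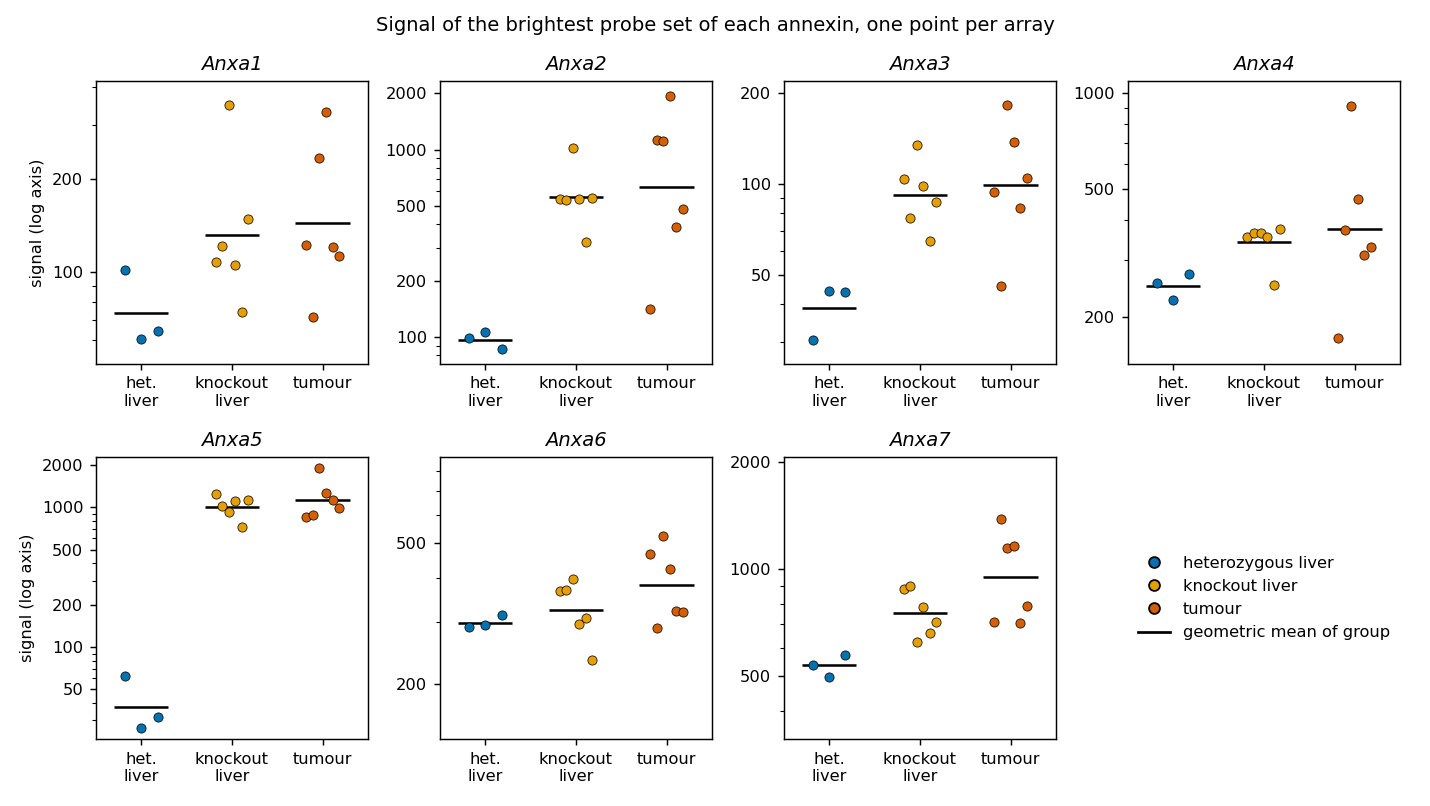
Signal of the brightest probe set of each annexin in every array, on a log axis, for heterozygous livers (n = 3), knockout livers (n = 6) and tumours (n = 6); the bar is the geometric mean of a group and each panel has its own scale. Anxa5 lies between 26.3 and 62.4 in heterozygous livers and between 727.0 and 1920.9 in the 12 knockout samples, while the Anxa6 groups overlap.

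The tumours were also set against heterozygous liver. This comparison shares the heterozygous livers with the one above and is likewise a description without a test. Of the 13 annexin probe sets, 4 were called, all higher, where 6.36% of all probe sets were called in either direction and 3.89% higher. They were those of Anxa5, at 24.3-fold with a log2 change of 4.60 ± 0.26 SE, and the brightest of Anxa2 (2.61 ± 0.54), of Anxa3 (1.18 ± 0.30) and of Anxa7 (0.81 ± 0.21). In the same 4 probe sets every tumour was above every heterozygous liver, which held for 5.38% of all probe sets. The margin was small in single tumours: Anxa2 in tumour 3 was 142.2 against a highest heterozygous signal of 107.0, and Anxa3 in tumour 4 was 45.7 against 44.2. The count called fell to 2 without heterozygous liver 1, 2 or 3, and the fits with the actin ratio as a covariate or with these groups alone each called 1. Of all 16128 probe sets, 426, 393 and 381 were called without these livers, 34 with the actin ratio and 305 with these groups alone. Without tumour 4 the count was 4, where 1174 of all probe sets were called.

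**Figure D2:**
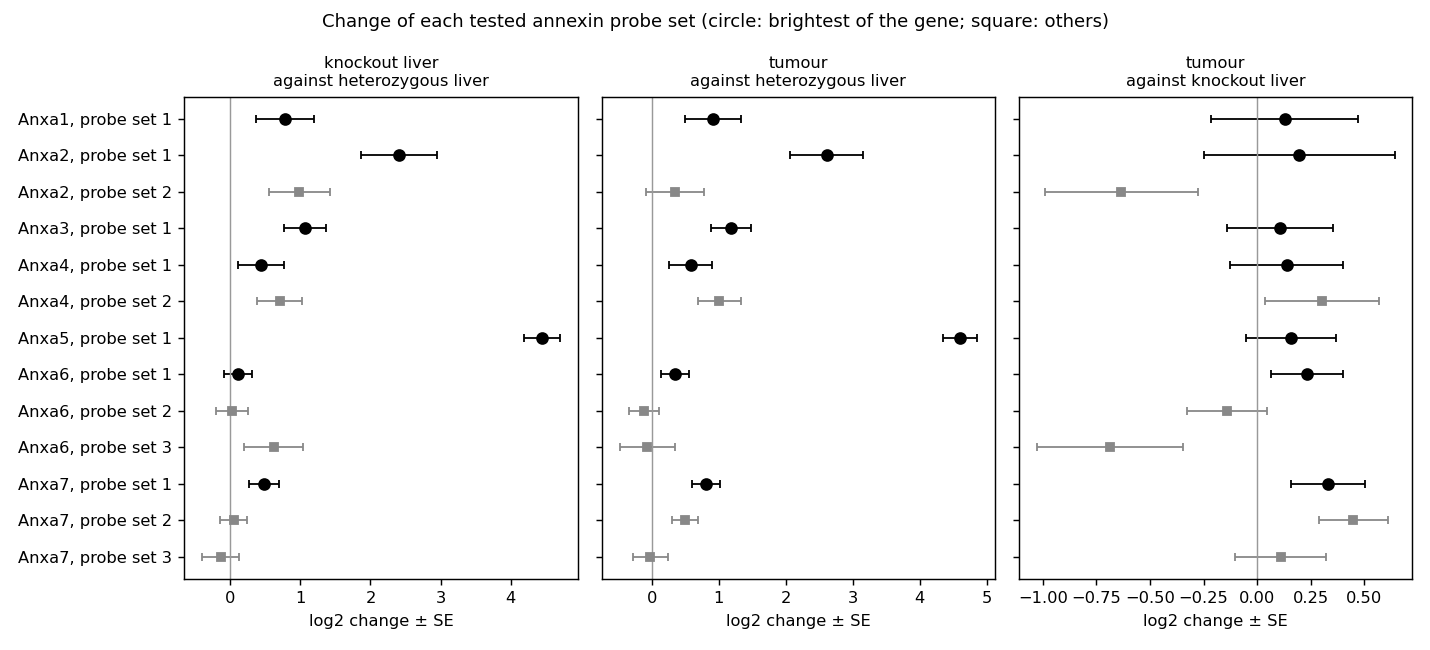
Log2 change with its standard error for each of the 13 tested annexin probe sets in the 3 comparisons; circles are the brightest probe set of a gene and squares the others, and the panels have different scales. Against heterozygous liver Anxa5 stands at 4.44 in knockout liver and 4.60 in tumour, whereas the changes from knockout liver to tumour lie between -0.69 and 0.45.

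The last comparison set tumour against non-tumorous liver of the same genotype, and it was tested. It shares the 6 knockout livers with the comparison by which the family was chosen, so it is not independent of that choice. Of the 13 annexin probe sets, limma called 0, where 0.124% of all probe sets were (20 of 16128). An unadjusted limma p under 0.05 was found in 1 of the 13 and in 1613 of all 16128. The median log2 change of the 7 genes was 0.16 and that of all genes 0.01. Tumours and knockout livers overlapped in every annexin probe set. The share of all probe sets that overlapped in this comparison is not given here, so the annexin overlap is a description only. A missing call does not show equal levels, and the intervals below give the differences that remain possible. Without tumour 4, 0 probe sets were called by limma and the log2 changes of the 7 genes ran from 0.03 for Anxa2 to 0.32 for Anxa1.

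Anxa5 in the tumours ran from 859.3 in tumour 3 to 1920.9 in tumour 5-1, with a median of 1064, against 727.0 to 1255.2 in knockout livers. Tumours 5-1 and 5-2 (1274.5) were above every liver and the other 4 lay within the liver range. The log2 change was 0.16 ± 0.21 SE (95% interval -0.28 to 0.60, limma adjusted p = 0.863). Without tumour 5-1 it was 0.01.

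Anxa2 was the most uneven annexin among the tumours. Its signals were 142.2 in tumour 3, 387.7 in 6-1, 484.1 in 6-2, 1116.7 in 5-1, 1129.2 in tumour 4 and 1930.5 in 5-2, a 13.6-fold span, compared with a 3.16-fold span among the knockout livers. Tumours 4, 5-1 and 5-2 were above every knockout liver, and tumour 3 was below every one. The log2 change was 0.20 ± 0.45 SE (95% interval -0.74 to 1.13, limma adjusted p = 0.926), and the single tumours decided its sign: it was 0.61 without tumour 3 and -0.12 without tumour 5-2. The second, dim Anxa2 probe set had the opposite sign, at -0.63 ± 0.36 SE with a limma adjusted p of 0.579.

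Anxa1 ran from 71.3 to 332.4 in tumours, with a median of 121, and its log2 change was 0.13 ± 0.34 SE (95% interval -0.59 to 0.85, limma adjusted p = 0.938). Anxa3 ran from 45.7 to 182.5, with a median of 99.2, and its log2 change was 0.11 ± 0.25 SE (95% interval -0.41 to 0.63, limma adjusted p = 0.927). For both genes the highest values came from the tumours of mouse 5, and leaving out tumour 5-1 turned both signs, to -0.0045 for Anxa1 and -0.06 for Anxa3. The sign of Anxa1 also turned without tumour 5-2, at -0.10, and without liver 5, at -0.02. Anxa4 ran from 170.9 in tumour 3 to 909.8 in tumour 5-1, with a median of 351, and its log2 change of 0.14 ± 0.26 SE (limma adjusted p = 0.915) became -0.12 without tumour 5-1. Its second probe set gave 126.1 in tumour 3 and 601.2 in tumour 5-1, so both probe sets placed the same tumours lowest and highest.

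Anxa6 ran from 288.8 to 524.7 in tumours, with a median of 373, and its log2 change was 0.23 ± 0.17 SE (95% interval -0.12 to 0.58, limma adjusted p = 0.692). Its other 2 probe sets had negative log2 changes, of -0.14 ± 0.18 and -0.69 ± 0.34 SE, so the direction of Anxa6 differed between probe sets. Anxa7 ran from 704.7 to 1381.4, with a median of 969, and its log2 change was 0.33 ± 0.17 SE by its brightest probe set (95% interval -0.03 to 0.69). Its second probe set was the one annexin probe set with an unadjusted p under 0.05, at a log2 change of 0.45 ± 0.16 SE (95% interval 0.11 to 0.79) and a limma adjusted p of 0.333. In it 5 of 6 tumours lay above all 6 knockout livers (146.0 to 238.0 against 101.2 to 173.8). Its unadjusted interval excludes 0, where 1613 of all 16128 probe sets had an unadjusted limma p under 0.05.

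**Figure D3:**
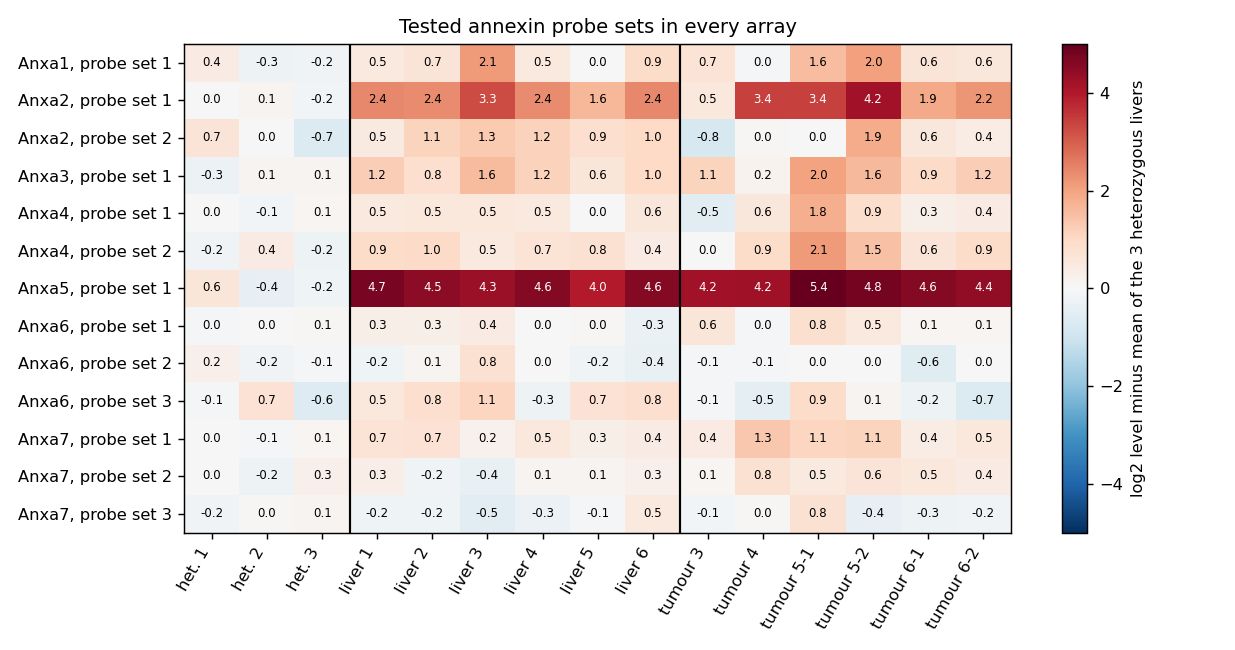
Log2 level of each tested annexin probe set in every array, minus the mean of the 3 heterozygous livers; columns are arrays in their groups, divided by black lines, and colour runs from blue (lower) to red (higher). Anxa5 is the one row that is dark red in all 12 knockout samples, and the Anxa2 row shows tumour 3 near the heterozygous level.

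Of the 6 knockout mice, 4 gave both tissues, so each tumour could be set against the liver of its own mouse. In tumours 5-1 and 5-2 all 7 annexins were higher than in liver 5, with median log2 differences of 1.39 and 0.87. In tumours 3 and 6-1, 2 of 7 were higher and 5 lower, and in tumours 4 and 6-2, 3 were higher and 4 lower. Liver 5 was itself the lowest of the 6 knockout livers for 5 of the 7 genes. Tumours 5-1 and 5-2 share that 1 liver and are not independent of each other.

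The largest single differences were those of Anxa2. Tumour 3 had 142.2 where liver 3 had 1023.0, which is 6.82-fold lower once 9.1 is added to each signal. Tumour 5-2 had 1930.5 where liver 5 had 323.5, which is 5.83-fold higher on the same scale. Liver 3 was itself the highest knockout liver for Anxa1, Anxa2, Anxa3 and Anxa6. Anxa5 differed little in tumours 3, 4, 6-1 and 6-2, by log2 differences of -0.11, -0.33, 0.01 and -0.18, and was higher in 5-1 and 5-2, by 1.39 and 0.80. Anxa6 was higher than in the own liver in 5 of 6 tumours, Anxa7 in 5 of 6 by its brightest probe set and in 6 of 6 by its second one, by 0.15 to 0.65. Fitted with the mouse as a fixed block over these 4 mice, 0 annexin probe sets were called, where 0 of all 16128 probe sets were.

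**Figure D4:**
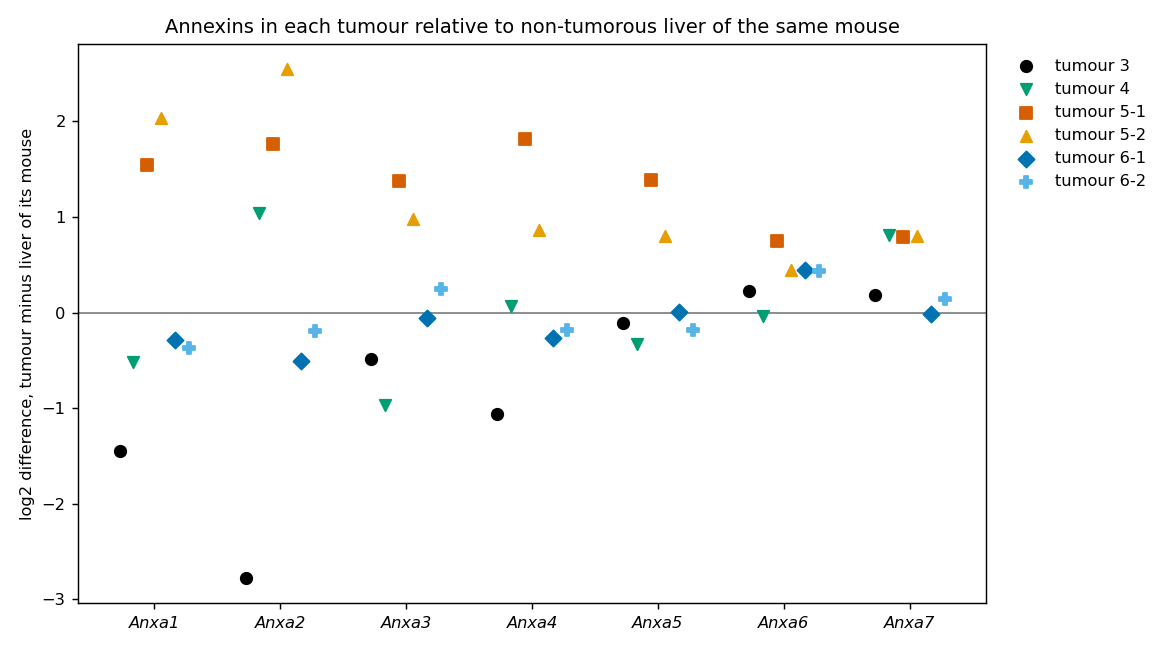
Log2 difference between each tumour and the non-tumorous liver of the same mouse for the brightest probe set of each annexin; each symbol is a tumour, and the line at 0 marks no difference. Tumours 5-1 and 5-2 lie above 0 for all 7 genes, and Anxa2 spans from -2.77 in tumour 3 to 2.54 in tumour 5-2.

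Other cell types of the liver were followed through lists of their marker genes. In knockout against heterozygous liver, 2 of 12 macrophage markers tested rose (Cd68, a lysosomal glycoprotein, and Lyz2, lysozyme), 1 of 7 bile duct markers (Cdh1, E-cadherin, which hepatocytes share), 1 of 10 stellate cell markers (Pdgfrb, a growth factor receptor) and 0 of 9 endothelial markers, with none lower, where limma called 1.86% of all genes in either direction. The calls of Cd68 and Cdh1 were kept in each of 15 fits without 1 array, those of Pdgfrb in 10 and of Lyz2 in 7. With the actin ratio as a covariate, none of these marker calls was kept, where 35 of all 16128 probe sets were called. In tumour against heterozygous liver 5 of 12 macrophage markers, 1 of 7 bile duct markers, 1 of 10 stellate cell markers and 1 of 9 endothelial markers rose and 4 of 11 hepatocyte markers fell, where 6.8% of all genes were called. By sign alone, 8 macrophage markers were higher there and 4 lower (Clec4f, Cd5l, Marco and Vsig4). The same counts were 5 and 2 for bile duct, 4 and 6 for stellate cell and 5 and 4 for endothelial markers. No marker of any list was called by limma in tumour against knockout liver. Of the calls in tumour against heterozygous liver, those of C1qa, C1qb and Cdh1 were kept in 2 of 15 fits without 1 array and that of Apoa1 in 3. The other marker calls there were kept in 12 to 15. All of them were lost with the actin ratio as a covariate, where 34 of all 16128 probe sets were called. The summed macrophage signal ran from 2786 to 2947 in heterozygous livers, 4022 to 6505 in knockout livers and 1564 to 9125 in tumours. The summed stellate cell signal ran from 1335 to 1715, 1901 to 4235 and 936 to 3353 in the same order, and the summed bile duct signal from 147 to 263, 310 to 474 and 99.4 to 431. The rise of the bile duct sum in knockout liver rested largely on Cdh1, with mean signals of 48.1 in heterozygous and 217 in knockout livers. The median log2 change of the 7 bile duct markers was 0.07, with 5 higher and 2 lower. That of the 10 stellate cell markers in knockout liver was 0.49, with 7 higher and 3 lower. Their brightest members there were Col3a1 and Reln, with mean signals of 832 and 713, against 313 and 480 in heterozygous livers. In some samples these sums and the annexins were high or low together: liver 3 had the highest stellate cell sum (4235), liver 5 the lowest sums of the knockout livers for macrophage (4022), stellate cell (1901) and bile duct markers (310), tumour 5-1 the highest tumour sums for stellate cell (3353) and bile duct markers (431), and tumour 3 the lowest bile duct sum (99.4). Others were mixed or went apart. Tumour 4 had the lowest macrophage (1564), stellate cell (936) and endothelial sums (488) of the tumours. Its Anxa1 (71.3), Anxa3 (45.7) and Anxa6 (288.8) were also the lowest of the tumours, while its Anxa7 was the highest and its Anxa2 the second highest. Tumour 6-2 had the highest macrophage sum (9125) with no annexin at its highest. Liver 1 had the highest bile duct sum (474), and of the annexins only Anxa5 was highest there among the knockout livers. Close to background in heterozygous livers were the bile duct markers Krt7 and Cldn7, the stellate cell marker Col1a1 and the endothelial markers Pecam1 and Emcn, of which Col1a1 and Emcn are the stellate cell and endothelial markers called in tumour against heterozygous liver. Cftr and Muc1 did not pass the filter. The T and NK cell sum ran from 36.3 to 99.6, 38.0 to 97.3 and 35.1 to 123 in the same order, and Cd3d, Cd3e, Cd3g, Cd4 and Cd2 did not pass the filter. None of 3 T and NK cell, 3 B and plasma cell and 5 neutrophil markers tested was called in any comparison. The summed signal of 11 hepatocyte markers was 127824 to 138018, 98438 to 126823 and 84965 to 99421. The part of these cell types in the annexin differences was not tested.

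The binding partners of annexins were followed in a list of 10 genes, of which 9 were tested. In knockout against heterozygous liver, 1 of the 9 rose and none fell, where 1.86% of all genes were called, with a median log2 change of 0.73. The one that rose was Capn1, the large subunit of a calcium-activated protease (1.47 ± 0.32 SE, limma adjusted p = 0.0264). It gave 13.2 and 13.7 in 2 heterozygous livers, below the lowest 40th percentile of an array, and 51.1 in the other, so the size of the change rests on signals near background. It ran from 63.6 to 145.6 in knockout liver, and its call was lost without heterozygous liver 1 or 2 or knockout liver 3. S100a10, the small subunit that joins Anxa2 into a tetramer, ran from 646.1 to 827.9 in heterozygous liver and from 922.9 to 1765.2 in knockout liver, without overlap, but it was not called (0.95 ± 0.29 SE, limma adjusted p = 0.105). In tumour against heterozygous liver, 3 of the 9 rose: Capn1 (1.22 ± 0.32 SE), S100a10 (1.18 ± 0.29) and Sri, the sorcin gene whose product binds Anxa7 (0.94 ± 0.27). Their limma adjusted p-values were 0.03, 0.0195 and 0.0458, where 6.8% of all genes were called. The call of Capn1 was lost without heterozygous liver 1 or 2 or tumour 6-2, that of S100a10 without heterozygous liver 1, 2 or 3, and that of Sri without any 1 heterozygous or knockout liver and without tumour 4 or 5-2. In tumour against knockout liver limma called 0 of 9, where 0.136% of all genes were called, and S100a10 differed by a log2 value of 0.23 ± 0.24 SE. In tumour 5-1, S100a10 was lowest of the 6 tumours (867.4), where Anxa2 was 1116.7.

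Genes of phosphatidylserine exposure and recognition concern the lipid that Anxa5 binds. Limma called 1.86% of all genes in knockout against heterozygous liver, 6.8% in tumour against heterozygous liver and 0.136% in tumour against knockout liver. Of 5 exposure genes tested, 1 rose in knockout liver, Plscr1, a phospholipid scramblase (1.10 ± 0.27 SE, limma adjusted p = 0.0437), and its call held in 14 of 27 alternative fits, being lost without any 1 of the heterozygous livers and without knockout liver 1, 2, 3, 4 or 6 or tumour 6-1. It rose in tumour too (1.52 ± 0.27 SE, limma adjusted p = 0.00268), running from 38.1 to 47.2 in heterozygous livers, 74.9 to 158.9 in knockout livers and 72.8 to 240.7 in tumours. Of 10 recognition genes, Axl, a receptor tyrosine kinase bound through Gas6, rose in knockout liver (1.69 ± 0.39 SE, limma adjusted p = 0.0327). It ran from 28.4 to 48.8 in heterozygous liver and from 117.1 to 153.4 in knockout liver, and its call was lost in 8 of the 15 fits without 1 array, those without heterozygous liver 1, 2 or 3 or knockout liver 1, 2, 3, 4 or 6. In tumour against heterozygous liver 2 of the 10 rose: Axl (1.69 ± 0.39 SE, limma adjusted p = 0.0147), whose call was lost without heterozygous liver 2 or 3, and Mfge8, a secreted protein that bridges phosphatidylserine to integrins (2.59 ± 0.47 SE, limma adjusted p = 0.00286). Mfge8 ran from 61.1 to 85.8 in heterozygous livers, 139.2 to 288.8 in knockout livers and 133.4 to 1156.2 in tumours, so neither knockout livers nor tumours overlapped with heterozygous livers. None of these 15 genes was called in tumour against knockout liver.

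Another 2 lists held Anxa1 receptors with phospholipases, and genes of plasmin formation, in which Anxa2 takes part. Of 3 genes tested from the list of Anxa1 receptors and phospholipases, 0 were called in any comparison by limma. The brightest of them was Fpr2, a formyl peptide receptor, with mean signals of 33.8, 36.0 and 28.6 in heterozygous liver, knockout liver and tumour, all close to background. Of 5 genes of plasmin formation, 0 were called in knockout liver, and Plg, plasminogen itself, a secreted hepatocyte protein, fell in tumour against heterozygous liver (-0.52 ± 0.14 SE, limma adjusted p = 0.0368). It ran from 8149 to 9907 in heterozygous livers and from 5852 to 6787 in tumours, and the call was lost without heterozygous liver 1, 2 or 3 or tumour 5-2 or 6-2. With the actin ratio as a covariate, none of the calls on these partner genes was kept. That fit called 35 of all 16128 probe sets in knockout liver and 34 in tumour, both against heterozygous liver.

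To show which genes ran most like Anxa5 among the knockout samples, its log2 levels were correlated with those of 9531 genes over the 12 knockout livers and tumours. The 5 highest were Tpm3, a tropomyosin (Pearson r = 0.93), Ptpn12, a tyrosine phosphatase (0.90), Fgfr3, a fibroblast growth factor receptor (0.90), Itgav, an integrin alpha chain (0.89), and Plscr2, a scramblase (0.89). Among the other annexins Anxa4 ranked highest, at 40 of 9531 (r = 0.84), followed by Anxa3 at 348 (0.71), and Anxa6 ranked lowest at 2031 (0.42). For Anxa2 over the same samples the 5 highest were Elovl7, a fatty acid elongase (0.92), Fabp5, a fatty acid-binding protein (0.90), Ncl, nucleolin (0.90), Rrn3, a factor of RNA polymerase I (0.90), and Ywhah, a 14-3-3 protein (0.89), and Anxa4 ranked 49 (0.78). Anxa2 and Anxa5 had r = 0.49 with each other. Over all 15 arrays, where the gap between heterozygous and knockout samples sets most of the spread, Plpp2 (0.95), Dbndd2, Tax1bp3 and Tnfrsf12a (0.93 each) and Npc2 (0.92) ran most like Anxa5, and Anxa2 ranked 106 (0.81). These correlations are descriptions over samples of which several share a mouse, and the genes were picked as the highest of many. Anxa5 was 1920.9 in tumour 5-1 and no more than 1274.5 in any other sample, and r was not recomputed without that array. Rrn3 ran from 41.8 to 52.4 in knockout livers, near background.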

How the data were processed

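The submitters' processing notes name MAS5, and the deposited intensity values are linear signals with no version, mask or detection call given in the sources used here. The labels' protocols give Trizol RNA from frozen liver. Probe sets were named from a platform annotation, which lists 1 gene for 20393 of 22690, several for 691 and none for 1606. Here 64 control probe sets were left out and the rest kept when above their array's 40th percentile in at least 3 arrays. Signals plus 9.1 (the 20th percentile of all signals) were taken to log2 and fitted with limma 3.58.1 (R 4.3.3; lmFit, eBayes with a trend) over all 15 arrays, with the mouse as a random block (consensus correlation -0.01, estimated once and used in each fit with this block), and Benjamini-Hochberg adjustment over 16128 probe sets. The fit was tested on simulated data.

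The brightest probe set represents a gene. All probe sets of the members are named. Of each partner list the 2 largest called changes each way are named, or the brightest gene. The members and lists were chosen with earlier results of these data known, and the Anxa5 difference between knockout and heterozygous liver drew attention to the family. Tumours and livers of 4 mice are paired by the mouse number in the labels: residuals of same-mouse pairs correlated at -0.16 to 0.09 (6 pairs) and of other pairs at -0.09 to 0.16 (30 pairs). The labels give separate mice per liver, but tumours 5-1 and 5-2, and 6-1 and 6-2, come from 1 mouse each. No hybridisation batch is given, and the number of arrays limits the precision.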

Additional observations from a re-analysis of the deposited data

Results flagged for a closer look

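In groups of 6 arrays, a gap test (Dixon's, at its 95% level) was run on 30 combinations of annexin probe set and group, of which chance flags about 1 in 20. The brightest Anxa4 probe set in knockout liver 5 was 251.7, where the other 5 knockout livers lay between 353.8 and 375.4, a gap of 0.851 of the range. The second Anxa6 probe set in tumour 6-1 was 110.0, where the other 5 tumours lay between 162.0 and 174.4, a gap of 0.838 of the range.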

How the results depend on the processing

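Each comparison was recomputed under 27 alternatives, and tumour against knockout liver under 1 more. In knockout against heterozygous liver, the count of 2 called annexin probe sets became 5 with these groups alone, 1 with the actin ratio as a covariate and 1 without the trend, and ran from 1 to 3 without single arrays. Over all 16128 probe sets, 293 were called as reported and 1497, 35 and 196 in those settings. Without single arrays 73 to 478 were called, so the annexin counts moved with the calls over all probe sets. In tumour against heterozygous liver, the count of 4 became 1 with these groups alone and 1 with the actin covariate, and ran from 2 to 5 without single arrays. Over all probe sets, 1026 were called as reported, 305 and 34 in those settings, and 381 to 1187 without single arrays. In tumour against knockout liver limma called 0 in all 28, also with the mouse as a replicate block, which changed no call (limma called 0 over all probe sets, with 1206 at an unadjusted p under 0.05; this fit holds the 4 mice with both tissues only). No paired analysis was possible for the comparisons with heterozygous liver because their numbers belong to different mice. Anxa5 kept its direction and its call against heterozygous liver in all 27, with log2 changes of 3.74 to 4.76 in knockout liver and 3.90 to 4.92 in tumour. The family was chosen by this Anxa5 difference in knockout liver, and the tumour comparison shares the heterozygous livers, so the kept calls are a description and support nothing. With the actin covariate Anxa6 turned to -0.29 in knockout liver and -0.23 in tumour, both against heterozygous liver, and Anxa3 to -0.054 in tumour against knockout liver. With the tumours of 1 mouse averaged, Anxa4 turned to -0.0036, Anxa1 to -0.021 and Anxa3 to -0.027 in tumour against knockout liver, and with the replicate block Anxa1 turned to -0.0013. Without single arrays, in the same comparison, Anxa2 ran from -0.12 to 0.61, Anxa4 from -0.12 to 0.35, Anxa1 from -0.10 to 0.39 and Anxa3 from -0.057 to 0.30. The causes were not tested. Over the 21 log2 changes, 532 recomputed values kept direction and side of the threshold, 23 lost and 6 gained the call, and 13 changed sign. Signals near background limit Anxa5 and Capn1 in heterozygous liver and the dimmer Anxa2 and Anxa6 probe sets. They also limit Anxa3, Axl and Plscr1 in heterozygous liver, at no more than 44.2, 48.8 and 47.2, and Anxa3 in tumour 4 (45.7). These values do not exceed the range of array medians (35.8 to 51.2).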

Other observations

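Of the other annexins on the array, Anxa8, Anxa9, Anxa10 and Anxa13, 6 probe sets were listed and 2 genes, Anxa9 and Anxa13, passed the filter, with 0 called by limma in any comparison. Anxa13, an annexin known from intestinal and renal epithelium, was at or below 42.0 in all 9 livers. In the tumours it was 595.3 in tumour 3, 205.1 in tumour 4, 95.9 in tumour 6-2, 26.2 in 6-1, 20.6 in 5-2 and 1.0 in 5-1. The values of tumours 6-1, 5-2 and 5-1 did not exceed the 40th percentile of their arrays and have no order among them. Anxa9 ran from 4.9 to 7.9 in heterozygous livers, 10.9 to 30.5 in knockout livers and 3.7 to 44.4 in tumours, all near background.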
